A study of Mus musculus with 6 samples.

Results

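Glycolysis splits glucose into pyruvate, which is then reduced to lactate and exported or sent into the mitochondria. The hypoxia response acts on the same pathway. When oxygen is scarce, the alpha subunits of the hypoxia-inducible factors (HIF) escape prolyl hydroxylation and VHL-mediated degradation, pair with ARNT and switch on genes for glucose uptake, most glycolytic steps, lactate export and the diversion of pyruvate from mitochondria. HIF alpha subunits are controlled mainly at the protein level, so their own transcripts are no measure of HIF activity. The embryonic lung grows in low oxygen, and its growth and branching depend on rapidly dividing epithelium and mesenchyme.

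The 32 genes described here cover this axis, from glucose and lactate carriers through the glycolytic enzymes to the HIF subunits, their hydroxylases and a set of HIF-responsive genes. They were chosen by name as known genes of glycolysis and the hypoxia response. A locus was taken where one of its symbols was such a gene, and all 32 were found, at 33 of the 24402 loci of the whole-transcriptome table, because *Car9* was listed at a pair of loci. RNA was sequenced from whole lungs of C57BL/6 mouse embryos at 12.5 dpc (days post coitus), in 3 libraries from wild-type embryos (control) and 3 from *Yap*-flox/flox; *Shh*-Cre/+ embryos, hereafter *Yap* mutants. In the mutants both floxed copies of *Yap*, which encodes a transcriptional co-activator of the Hippo pathway, are open to deletion by a Cre recombinase expressed from *Shh*, and *Shh* is transcribed in the lung epithelium. The mesenchyme, vessels and blood of the same organ keep their *Yap*, and each mutant carries a Cre allele that the controls lack. According to the paper this allele disrupts the *Shh* locus. Loss of *Yap* and a disrupted *Shh* copy therefore cannot be told apart in the values below.

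Levels are given as FPKM (fragments scaled to transcript length and to the mapped fragments of the library), a unit that allows genes to be set beside each other. The deposited tables hold 1 pooled value per genotype, so there is no spread between libraries, no test was possible and none of the differences below has an error. Differences are log2 of the *Yap* mutant value over the control value after adding 0.1 FPKM to each, and ratios are of the values as deposited. A gene was counted as higher or lower where the larger value exceeded the smaller by at least 25% (0.32 on the log2 scale, called the 25% limit below) and the genotypes averaged 1 FPKM or more, which 32 of the 33 loci and 12716 of all loci reached. The remaining locus is the fainter of the *Car9* pair.

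*Yap1* itself was at 76.1 FPKM in controls and 65.6 FPKM in mutants, a log2 difference of -0.21 in whole organs in which the deletion targets the epithelium. *Shh* had 15.6 and 2.31 FPKM (-2.71), and the paper attributes part of its lower *Shh* levels to the Cre allele. The lung label was met by its defining markers in both genotypes, with *Nkx2-1* at 61.9 and 35.9 FPKM and the 12 epithelial markers summing to 522 and 487 FPKM. Of these 12, 8 were lower and 2 higher in mutants past the limit, with a median of -0.71, and the 2 higher ones, *Id2* (118 and 211 FPKM) and *Sftpc* (28.4 and 55.8 FPKM), held up the sum. Heart muscle markers differed with genotype. All 12 of them were above 0 in both genotypes, all 12 had the larger value in *Yap* mutants, and their sum was 122 FPKM in controls and 888 FPKM in mutants. In whole organs, fewer cells of a type and less RNA per cell cannot be told apart.

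The labels give no sex, and the pools differed in it. The Y-linked genes *Ddx3y*, *Eif2s3y*, *Kdm5d* and *Uty* summed to 0.0306 FPKM in controls and 36.4 FPKM in mutants, and *Xist*, transcribed from the inactive X chromosome, had 97.03 and 50.4 FPKM, so sex and genotype cannot be told apart in the values below. Of the 32 genes 1, *Pgk1*, is X-linked.

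Most of the 32 genes lay above control in *Yap* mutants. Of the 32 loci past the minimum level, 30 had a log2 difference above 0, 14 were higher past the 25% limit and 0 were lower past the 25% limit. Among all 12716 loci 9.63% were higher and 6.80% lower by that fold, and 6133 lay above 0 against 6583 below. The median log2 difference was 0.31 for the members and -0.01 for all loci. At 1.5-fold, 6 members were higher (*Slc2a3*, *Adm*, *Eno2*, *Slc16a3*, *Pfkp* and *Ankrd37*) and 0 lower, against 4.44% of all loci higher and 3.30% lower. Of the 23 glycolysis genes 11 were higher, with a median of 0.30. Of the 9 hypoxia loci 3 were higher, with a median of 0.31.

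**Figure D1:**
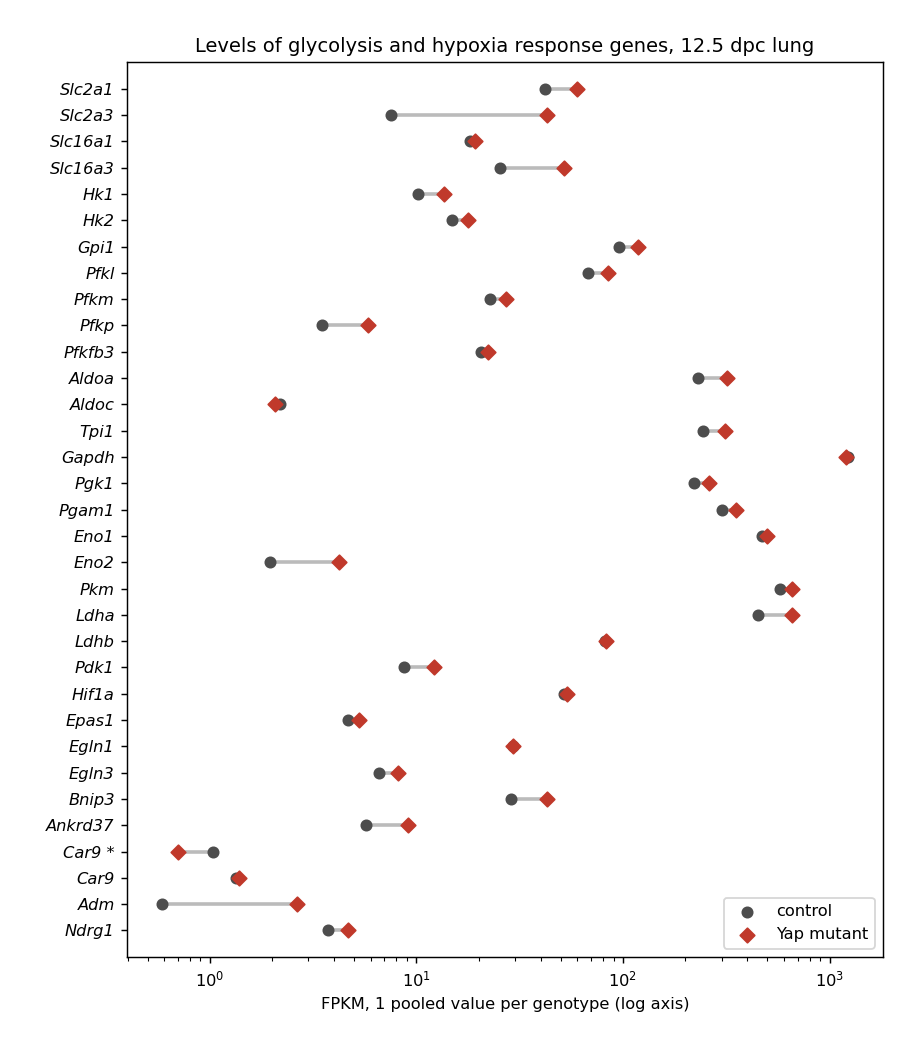
FPKM in control lungs (grey circles) and *Yap* mutant lungs (red diamonds) for each locus of the 32 genes, on a log axis, with 1 pooled value per genotype and hence no error bars; the asterisk marks the *Car9* locus with a mean below 1 FPKM. The widest gaps are those of *Slc2a3* (7.55 against 42.7 FPKM) and *Adm* (0.585 against 2.65 FPKM), and the mutant value lies to the left of the control value only for *Aldoc*, *Gapdh* and the marked *Car9* locus.

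The proximal promoters of these genes are shown first, since HIF dimers bind a short core, ACGTG or GCGTG. Having a core did not set apart the genes that stood higher. ACGTG was in 5 of 13 of them and in 12 of the other 16 members with an entry. Several of the genes that stood higher carry a core just upstream of their start. Shown are a few of these. *Slc16a3*, *Ldha*, *Bnip3* and *Ankrd37* hold ACGTG, and *Adm* holds only GCGTG. *Aldoa* was added as a gene that stood higher with neither core. *Hk1*, *Tpi1* and *Eno2*, not shown, also stood higher with neither core. The sequences are from RefSeq on GRCm38.p6 and run 5′ to 3′ along the gene's strand over the 250 bases before the annotated start, with every match to either core, on either strand, in capitals (matches on the opposite strand read CACGT or CACGC).
Slc16a3 (chr11:120948817-120949066, plus strand): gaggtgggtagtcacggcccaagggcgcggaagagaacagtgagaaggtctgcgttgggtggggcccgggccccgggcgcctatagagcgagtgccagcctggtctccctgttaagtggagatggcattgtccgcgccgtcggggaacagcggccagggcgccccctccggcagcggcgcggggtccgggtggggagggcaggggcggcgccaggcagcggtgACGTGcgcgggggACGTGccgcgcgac
Ldha (chr7:46845554-46845803, plus strand): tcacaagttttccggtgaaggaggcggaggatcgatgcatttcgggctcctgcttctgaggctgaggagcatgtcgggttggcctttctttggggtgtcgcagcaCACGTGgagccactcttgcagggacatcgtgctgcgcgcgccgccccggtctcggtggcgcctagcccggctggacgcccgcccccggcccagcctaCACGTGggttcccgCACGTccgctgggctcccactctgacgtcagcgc
Bnip3 (chr7:138909507-138909756, minus strand): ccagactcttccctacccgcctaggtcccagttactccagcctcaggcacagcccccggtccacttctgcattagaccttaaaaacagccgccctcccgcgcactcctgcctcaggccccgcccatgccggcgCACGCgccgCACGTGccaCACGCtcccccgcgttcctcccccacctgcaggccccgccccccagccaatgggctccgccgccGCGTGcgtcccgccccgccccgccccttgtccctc
Ankrd37 (chr8:45999851-46000100, minus strand): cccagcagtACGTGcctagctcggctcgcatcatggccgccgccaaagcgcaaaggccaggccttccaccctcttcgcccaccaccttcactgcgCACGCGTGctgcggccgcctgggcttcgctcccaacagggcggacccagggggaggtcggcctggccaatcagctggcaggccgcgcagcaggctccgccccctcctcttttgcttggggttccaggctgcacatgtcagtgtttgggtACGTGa
Adm (chr7:110627407-110627656, plus strand): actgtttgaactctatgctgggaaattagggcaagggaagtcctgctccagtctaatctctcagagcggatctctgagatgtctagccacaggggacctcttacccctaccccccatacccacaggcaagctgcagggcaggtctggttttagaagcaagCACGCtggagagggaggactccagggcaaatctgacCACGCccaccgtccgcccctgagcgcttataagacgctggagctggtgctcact
Aldoa (chr7:126800448-126800697, minus strand): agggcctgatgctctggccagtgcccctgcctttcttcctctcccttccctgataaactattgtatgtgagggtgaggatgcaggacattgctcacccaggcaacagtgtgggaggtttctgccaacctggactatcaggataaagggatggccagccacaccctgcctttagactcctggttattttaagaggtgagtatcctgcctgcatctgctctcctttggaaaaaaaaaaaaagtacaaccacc

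*Ldha* held the most ACGTG matches of any member. It had 5 matches at 3 places, because CACGTG reads the same on both strands and counts as a match on each. *Slc16a3* held 2 ACGTG matches at 2 places near the start, *Ankrd37* 2 at 2 places and *Bnip3* a single palindrome flanked by GCGTG matches. Across the full window of 250 bases before to 50 after the start, 17 of the 29 members with an entry held ACGTG (58.6%), against 19.6% of 27025 mouse genes, and 23 of 29 held either core (79.3%), against 43.8%. *Slc2a3*, *Epas1* and *Ndrg1* were not among the entries. The window of a member was the one nearest the 5′ end of its locus, and that of all genes the most upstream one. With the most upstream window for members too, the counts were again 17 and 23 of 29. Both cores contain CG, and the 27025 genes were not matched to the members for base composition or level. The members were also chosen by name and include HIF-responsive genes, so the comparison with all genes depends on that choice. The parts of base composition and of the choice of genes in these shares were not tested. Within the set, the cores went different ways. ACGTG was present in 5 of the 13 members that were higher past the 25% limit (38.5%) and in 12 of the other 16 (75%). GCGTG was in 8 of the 13 (61.5%) and in 7 of the 16 (43.75%). Either core was in 9 of the 13 (69.2%) and in 14 of the 16 (87.5%). For comparison, GGAATG, the core bound by the TEAD partners of YAP, was in 3 of 29 members (10.3%) and in 14.7% of all genes. A match of 5 or 6 letters is a description of the sequence and not a binding site.

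The member with the widest difference was a glucose carrier. *Slc2a3*, which encodes the high-affinity glucose transporter GLUT3 (chr6:122727809-122801895), had 7.55 FPKM in controls and 42.7 FPKM in *Yap* mutants, a 5.66-fold ratio and a log2 difference of 2.49. It ranked 82 of 12716 loci from the top. *Slc2a1*, the ubiquitous transporter GLUT1, had 42.2 and 59.7 FPKM (0.50). *Slc2a1* therefore remained the more abundant of the pair in both genotypes, but the gap between them narrowed from 60.4% against 10.8% of the summed level of 6 glucose transporters in controls to 48.8% against 34.9% in *Yap* mutants. That sum was 69.8 FPKM in controls and 122 FPKM in mutants, and *Slc2a3* alone made up 35.2 of the 52.6 FPKM between them. The insulin-responsive *Slc2a4*, which is no member, had 8.92 and 7.84 FPKM.

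*Slc16a3*, the monocarboxylate transporter MCT4 that exports lactate from highly glycolytic cells, had 25.4 FPKM in controls and 52.1 FPKM in mutants, a 2.05-fold ratio. *Slc16a1*, which encodes the related transporter MCT1, had 18.2 and 19.1 FPKM (0.07). The share of *Slc16a3* in the summed level of 4 monocarboxylate transporters was 54.5% in controls and 69.8% in *Yap* mutants. The *Slc16a3* locus overlaps the coding gene *Csnk1d*, so reads in the shared stretch cannot be assigned with certainty. *Bsg*, the chaperone that takes both transporters to the membrane, was listed at 206 and 226 FPKM (0.13) over a merged locus (chr10:79697305-80369637) that is far longer than the gene.

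**Figure D2:**
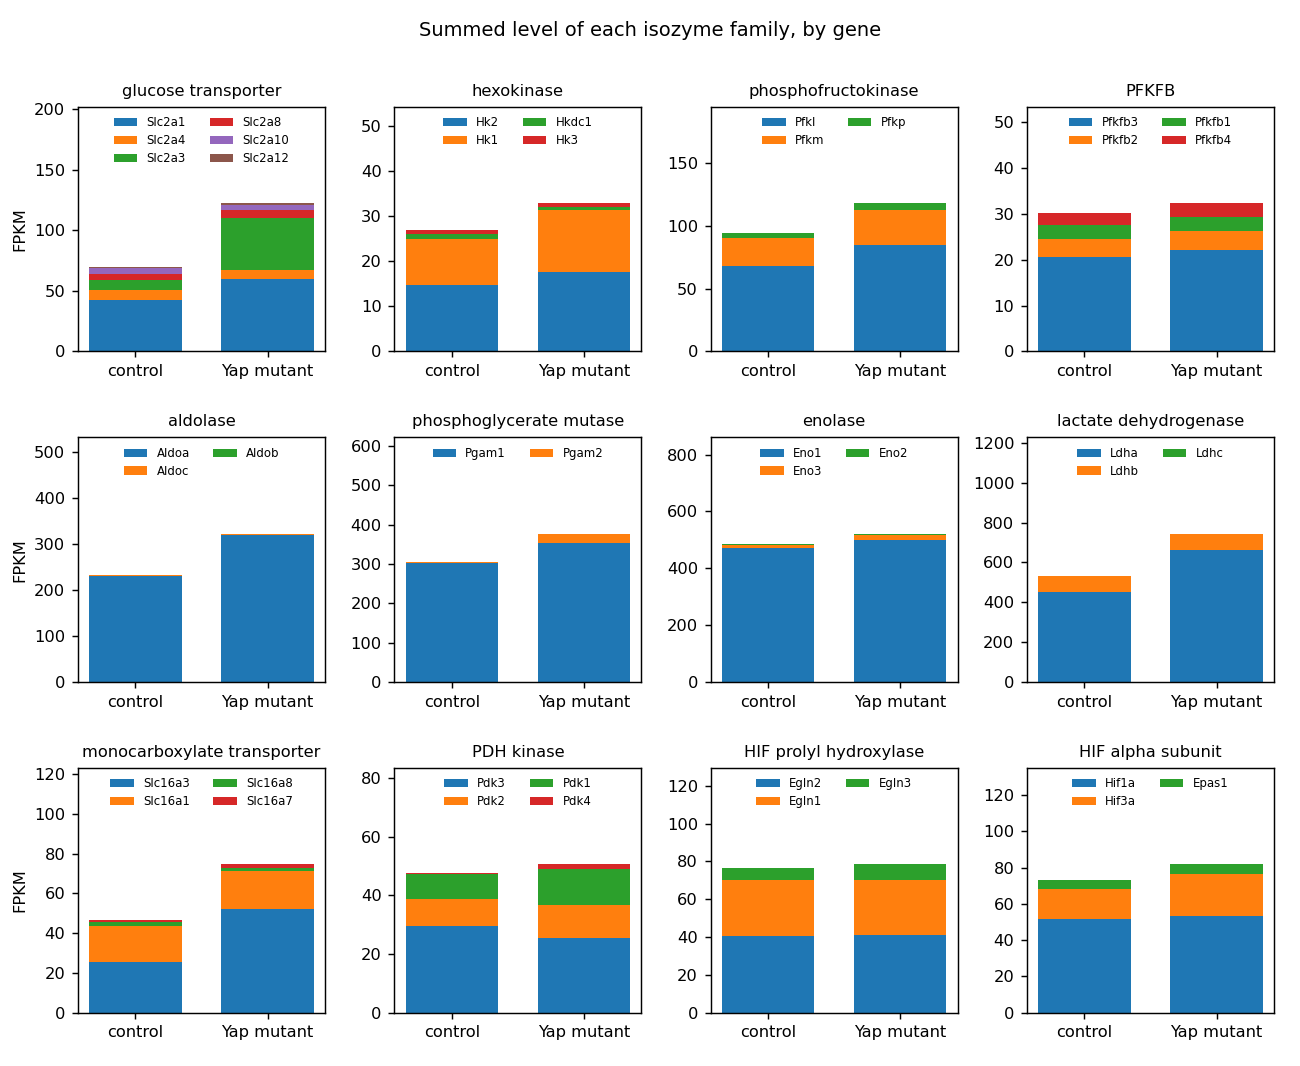
Summed FPKM of 12 isozyme families in control and *Yap* mutant lungs, with each bar divided by gene and each panel on its own linear axis from 0; values are 1 pooled value per genotype. The glucose transporter bar is taller in mutants mainly through *Slc2a3*, the monocarboxylate transporter bar through *Slc16a3* and the lactate dehydrogenase bar through *Ldha*.

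The upper part of glycolysis, from hexokinase to triosephosphate isomerase, spends ATP to make triose phosphates. Its 10 members summed to 713 FPKM in controls and 924 FPKM in mutants, a ratio of 1.30, and 5 of them were higher past the 25% limit. *Aldoa*, the main aldolase, had 230 and 320 FPKM (0.48), and *Tpi1*, triosephosphate isomerase, had 245 and 312 FPKM (0.35). *Hk1*, the housekeeping hexokinase, had 10.2 and 13.6 FPKM (0.41). These 3 genes each stood between 1.27- and 1.39-fold above control, at levels from about 10 to over 300 FPKM.

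The phosphofructokinases, which catalyse the committed step, all lay above control. *Pfkl*, the liver-type subunit and the most abundant here, had 67.6 and 84.8 FPKM (0.33), just past the 25% limit. *Pfkp*, the platelet-type subunit, had 3.48 and 5.82 FPKM (0.73). *Pfkm*, the muscle-type subunit, had 22.8 and 27.2 FPKM (0.25). The subunit mix was similar in both genotypes, with *Pfkl* at 72.0% of the sum in each. *Pfkp* and *Pfkm* overlap the coding genes *Pitrm1* and *Senp1*, and *Tpi1* overlaps *Spsb2*.

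Other genes of the upper part were closer to control. *Hk2*, the inducible hexokinase, had 14.9 and 17.8 FPKM (0.25), *Gpi1*, glucose-6-phosphate isomerase, had 96.1 and 119 FPKM (0.30), and *Pfkfb3*, which makes the allosteric activator of phosphofructokinase, had 20.7 and 22.1 FPKM (0.10). The minor aldolase *Aldoc* had 2.19 and 2.07 FPKM (-0.07). *Gpi1* and *Hk2* stayed within the limit, and *Aldoc* was the lowest member of the 32 past the minimum level.

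The lower part, from glyceraldehyde-3-phosphate dehydrogenase to pyruvate kinase and lactate dehydrogenase, yields ATP and regenerates NAD. It holds the 4 most abundant members, *Gapdh*, *Pkm*, *Ldha* and *Eno1*, and its 8 members had a summed level of 3341 FPKM in controls and 3719 FPKM in mutants, a ratio of 1.11. *Ldha*, the subunit of lactate dehydrogenase that favours lactate formation (chr7:46845804-46855627), was the exception among the abundant genes, with 451 FPKM in controls and 661 FPKM in *Yap* mutants, a 1.47-fold ratio. *Ldhb*, the subunit that favours pyruvate, had 81.9 and 82.7 FPKM (0.01). *Ldha* thus made up 84.6% of the summed lactate dehydrogenase level in controls and 88.9% in mutants. In control lungs the level of *Ldha* came after those of *Gapdh*, *Pkm* and *Eno1*, and in mutants its value was beside that of *Pkm*.

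*Gapdh*, the most abundant member, had 1234 and 1199 FPKM (-0.04, or 0.00 after rescaling each genotype to the same sum), and *Eno1*, the main enolase, had 473 and 499 FPKM (0.08). *Pgk1*, the first ATP-yielding step, had 220 and 260.0 FPKM (0.24), *Pgam1*, phosphoglycerate mutase, had 302 and 353 FPKM (0.23), and *Pkm*, pyruvate kinase, had 577 and 660 FPKM (0.19). These 5 genes were all within the limit. *Eno2*, the enolase of neurons and a known HIF target, was faint at 1.95 FPKM in controls and 4.22 FPKM in mutants (1.07). Of the 7 neuron and glia markers past the minimum level, 6 were lower past the 25% limit. All 8 such markers summed to 21.6 FPKM in controls and 14.5 FPKM in mutants, and the part of neurons in the *Eno2* values was not tested. *Gapdh*, *Eno1* and *Ldha* have processed pseudogene copies in the mouse genome, and reads shared with such copies cannot be assigned with certainty.

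The 18 enzymes of both parts together summed to 4054 FPKM in controls and 4644 FPKM in mutants. *Ldha* accounted for 210 of the 589 FPKM between these sums, *Aldoa* for 90.1, *Pkm* for 82.2 and *Tpi1* for 67.1 FPKM. Without *Gapdh* the sums were 2820 and 3445 FPKM, a ratio of 1.22.

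*Pdk1*, a kinase that inhibits pyruvate dehydrogenase and so keeps pyruvate from the mitochondria, had 8.74 FPKM in controls and 12.2 FPKM in mutants (0.47). It is 1 of 4 such kinases, which summed to 47.7 FPKM in controls and 50.6 FPKM in mutants, a ratio of 1.06. *Pdk3* was the most abundant of them in both genotypes, at 29.6 and 25.4 FPKM. The share of *Pdk1* in their sum was 18.3% in controls and 24.0% in mutants, and that of *Pdk3* was 62.1% and 50.3%.

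**Figure D3:**
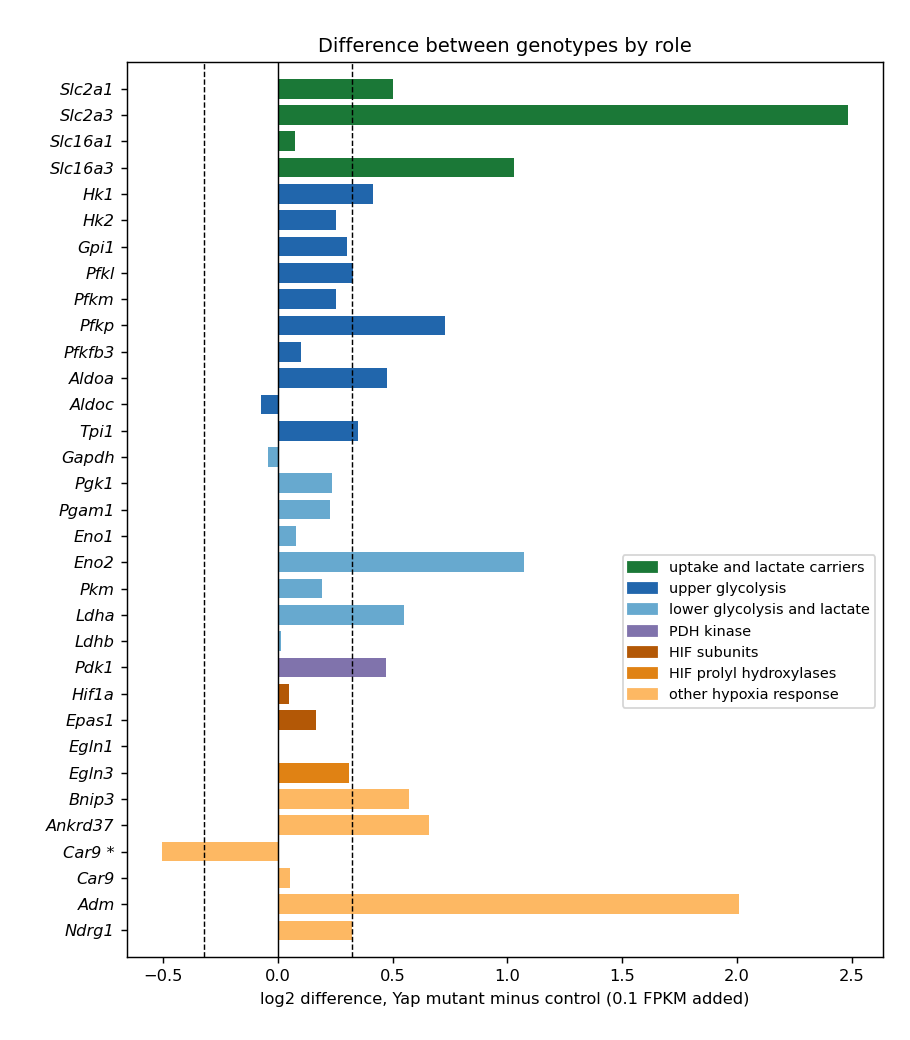
Log2 difference between *Yap* mutant and control lungs for each locus, coloured by role, with dashed lines at the 25% limit in either direction; bars start at 0 and carry no error because 1 pooled value per genotype exists. Carriers hold the longest bar (*Slc2a3*, 2.49), the HIF subunits and hydroxylases all stay inside the lines, and the asterisk marks the *Car9* locus with a mean below 1 FPKM.

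The regulators of the hypoxia response stayed near control. *Hif1a*, the main HIF alpha subunit, had 51.7 and 53.5 FPKM (0.05), and *Epas1*, which encodes HIF-2 alpha, had 4.68 and 5.28 FPKM (0.17). Of the prolyl hydroxylases, *Egln1*, the main oxygen sensor, had 29.2 and 29.3 FPKM (0.00). *Egln3*, a hydroxylase that is itself a HIF target, had 6.58 and 8.19 FPKM (0.31). Thus 0 of these 4 genes passed the 25% limit in either direction, and *Egln3* lay just below it. Among all loci 9.63% were higher and 6.80% lower past the limit, so most loci passed it in neither direction.

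Among 10 further genes of HIF control, 2 were higher (20%) and 1 lower (10%) past the 25% limit, against 9.63% and 6.80% of all loci. *Cited2*, which competes with HIF alpha for the co-activators p300 and CBP, had 20.2 and 41.3 FPKM (1.03), and *Hif3a*, another alpha subunit with inhibitory forms, had 16.6 and 23.1 FPKM (0.48). *Arnt2*, a partner subunit, had 14.4 and 11.1 FPKM (-0.36). *Arnt*, the usual partner, had 22.9 and 22.3 FPKM (-0.04), and *Vhl*, the ubiquitin ligase component that removes hydroxylated HIF alpha, had 21.7 and 20.9 FPKM (-0.06).

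Of the HIF-responsive members, 3 were higher past the 25% limit. *Bnip3*, a mitophagy receptor, had 28.8 FPKM in controls and 42.9 FPKM in mutants (0.57). *Ankrd37*, an ankyrin repeat gene induced in hypoxia, had 5.70 and 9.06 FPKM (0.66), at a locus that overlaps the coding gene *Ufsp2*. *Adm* encodes adrenomedullin, a vasodilator peptide needed for vessel development, and had 0.585 and 2.65 FPKM, a 4.54-fold ratio that rests on a low control level. *Adm* ranked 104 of 12716 loci by log2 difference.

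The other HIF-responsive members stayed within the limit. *Ndrg1*, a stress-response gene, had 3.73 and 4.68 FPKM. Its raw ratio was 1.26, yet with 0.1 FPKM added its log2 difference of 0.32 fell just short of the limit, while *Pfkl*, with the same rounded ratio and a higher level, passed. *Car9*, a carbonic anhydrase at the cell surface and a classic HIF target, was faint in both genotypes. One of its loci had 1.33 and 1.38 FPKM (0.05), and the other, at the same coordinates (chr4:43505651-43513725), had 1.04 and 0.702 FPKM (-0.51) and lay below the minimum level.

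Further known HIF targets outside the set showed a smaller lean. Of 28 loci past the minimum level, 5 were higher (17.9%) and 0 lower past the 25% limit, against 9.63% and 6.80% of all loci. The median log2 difference of the 28 was 0.13. These 5 were *Pgm2*, a phosphoglucomutase (14.8 and 24.9 FPKM, 0.74), *Car12*, a carbonic anhydrase (0.951 and 1.53 FPKM, 0.63), *Hmox1*, haem oxygenase (11.5 and 15.1 FPKM, 0.39), *P4ha1*, a collagen prolyl hydroxylase (25.2 and 32.5 FPKM, 0.37), and *Ak4*, an adenylate kinase (8.79 and 11.1 FPKM, 0.34). *Vegfa*, the vascular growth factor and best known HIF target, had 41.0 and 48.7 FPKM (0.25) and did not pass the limit.

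Level bears on how a fold reads, since low loci spread more widely. Among the 1721 loci that averaged 50 FPKM or more, 2.91% were higher and 2.91% lower past the 25% limit, with a median of -0.04. Of the 13 members in that range, 5 were higher (*Slc2a1*, *Pfkl*, *Aldoa*, *Tpi1* and *Ldha*) and 0 lower, with a median of 0.24. *Slc2a3* and *Slc16a3*, at means of 25.1 and 38.8 FPKM, ranked 82 and 261 of 12716 loci by log2 difference. Other loci of like level had wider differences, such as *Myh6* (mean of 32.3 FPKM, 3.75) and *Tnnc1* (46.2 FPKM, 3.13).

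**Figure D4:**
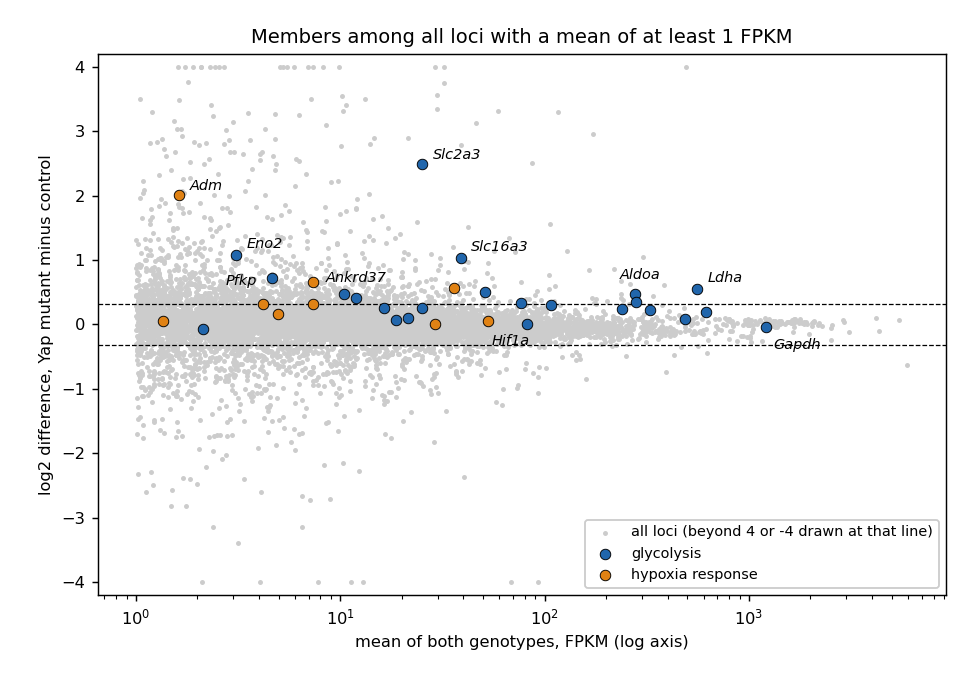
Log2 difference between *Yap* mutant and control lungs against the mean FPKM of both genotypes (log axis) for 12716 loci (grey), with the glycolysis genes in blue and the hypoxia response genes in orange; dashed lines mark the 25% limit. Members lie at or above 0 across the whole range of levels apart from small negative values for *Gapdh* (just above 0 after rescaling) and *Aldoc*, while the grey loci spread to both sides.

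*Pgam2* and *Eno3*, muscle isozymes outside the set, stood above control, as did the heart muscle markers. So did the muscle glycogen phosphorylase *Pygm*, from another list (2.20 and 7.06 FPKM, 1.64). The muscle-type *Pfkm*, a member, lay above control within the limit (0.25), and the insulin-responsive *Slc2a4* lay below control within it (-0.18). *Pgam2*, the muscle phosphoglycerate mutase, had 3.40 FPKM in controls and 24.4 FPKM in mutants (2.81), and *Eno3*, the muscle enolase, had 9.34 and 18.2 FPKM (0.95). Among the 16 other isozymes and partner proteins compared past the minimum level, 4 were higher and 0 lower, the remaining 2 being *Slc2a12* (1.02 and 1.64 FPKM, 0.64) and *Slc16a7* (1.33 and 1.85 FPKM, 0.45). The share of the 16 that was higher was 25%, against 9.63% of all loci, and their median was 0.08. Of the 10 heart muscle markers past the minimum level, all 10 were higher past 1.5-fold, with a median of 3.05 and values such as 39.3 and 306 FPKM for *Myl7*. Skeletal muscle markers summed to 6.88 FPKM in controls and 7.95 FPKM in mutants. The part of heart muscle RNA in the values of the 32 genes was not tested.

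Other cell type markers were set beside the set in the same way. Of all loci, 9.63% were higher and 6.80% lower past the limit, so most loci passed it in neither direction. Liver markers summed to 14.2 FPKM in controls and 60.4 FPKM in mutants (4 of 5 higher). Those 4 were *Ttr*, *Afp*, *Trf* and *Apoa1*, while *Alb*, the albumin gene, had 1.28 and 1.14 FPKM (-0.15). Smooth muscle markers summed to 283 and 145 FPKM (5 of 6 lower) and mesenchymal markers to 1008 and 977 FPKM (1 of 11 loci higher and 4 lower). Erythroid markers summed to 5824 and 6265 FPKM (2 of 9 higher), endothelial markers to 225 and 249 FPKM (0 of 10 past the limit), mesothelial markers to 112 and 119 FPKM (1 of 4 lower) and macrophage markers to 39.6 and 44.3 FPKM (1 of 6 higher). Their part in the values of the glycolysis and hypoxia genes was not tested.

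**Figure D5:**
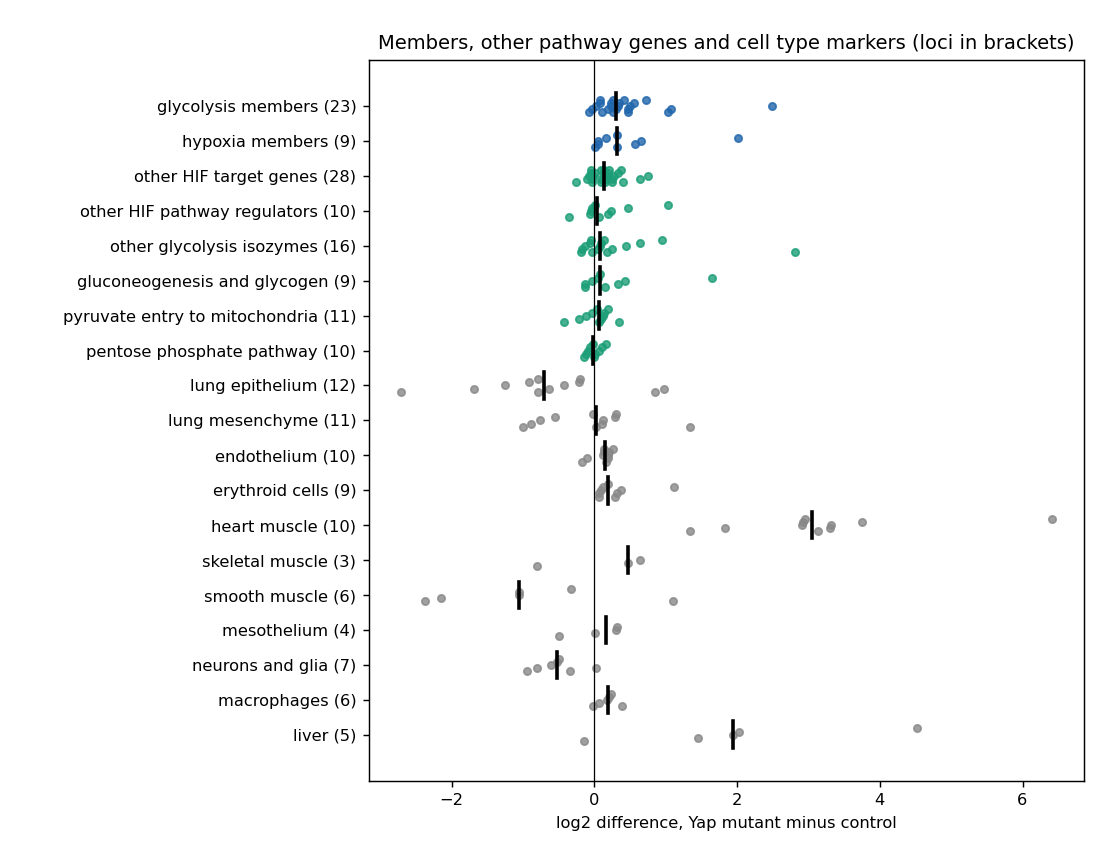
Log2 difference between *Yap* mutant and control lungs for each locus that averaged 1 FPKM or more, in the glycolysis and hypoxia sets (blue), related pathway lists (green) and cell type marker lists (grey); each point is a locus, black bars are medians and the number of loci stands in brackets. The blue sets centre on 0.30 and 0.31, the green lists between -0.02 and 0.13, and heart muscle markers on 3.05.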

How the data were processed

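RNA from 12.5 dpc lungs was extracted on columns, made into strand-specific paired-end libraries and sequenced on Illumina instruments. The authors' processing notes name TopHat and Cuffdiff and the mm10 genome (the same assembly as GRCm38), without versions or role. The deposited tables hold FPKM pooled by the authors per genotype (3 libraries each), so library depth is unknown and the precision of each value cannot be given. That the unit is FPKM was read from the Cuffdiff layout. The tables also hold the authors' fold changes and p-values, which were not used. All values came from the table of all loci, and the second table gave the same values for 18 member loci (tolerance 1%). Locus starts had 1 added, after which 9315 equalled RefSeq starts (618 as given).

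Python 3.11.15 with pandas 2.3.3, numpy 2.4.6 and matplotlib 3.10.9 was used, and the counting was tested on simulated data. No test was run. Alternatives covered the pseudocount (0 or 1 FPKM in place of 0.1), the minimum level, rescaling, merged loci and the fold. Genes outside the set were named where they passed the 25% limit, at most 5 in each direction per list, with *Vegfa*, *Arnt*, *Vhl* and *Bsg* named whatever their value. *Slc2a4*, *Pdk3*, the sex-linked genes and the markers cited were named after their values were seen. The genes and lists were chosen with earlier results of these data known. One gene of the list of other glycolysis isozymes is not reported here and was left out of that list's counts.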

Additional observations from a re-analysis of the deposited data

How the results depend on the processing

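The count of 14 members higher past the 25% limit became 23 at 1.1-fold (21.6% of all loci higher), 6 at 1.5-fold (4.44%) and 5 of 13 at a mean of at least 50 FPKM (2.91%), a limit chosen after seeing the data. It was 11 of 25 at a mean of at least 5 FPKM (5.40% of all loci higher), 15 with no pseudocount (9.99%) and 17 after rescaling each genotype to the same sum (11.4%). The count of members lower past the 25% limit was 0 in each setting apart from no filter on low values, where it was 1 (the faint *Car9* locus). The median of the glycolysis genes stayed between 0.27 and 0.35, and that of the hypoxia genes between 0.24 and 0.36 apart from 0.05 at 50 FPKM, where only *Hif1a* remained. Of 281 values of single members under the alternatives, 276 moved by less than 0.1 on the log2 scale, 5 moved further and 2 changed sign, both for *Gapdh*, which went from -0.04 to 0.00 under either rescaling. *Adm* moved most, to 1.21 with 1 FPKM added. No paired analysis was possible because the values are pooled per genotype. Depth and the spread between libraries are unknown, so no limit of detection can be given.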

Other observations

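Routes that branch from glycolysis were counted in the same way. In the pentose phosphate pathway, which makes NADPH and ribose, 0 of 10 loci passed the 25% limit in either direction. Among all loci 9.63% were higher and 6.80% lower past it, so most loci passed in neither direction. The median log2 difference of the 10 loci was -0.02. Among 11 loci for pyruvate entry to mitochondria, 1 was higher and 1 lower past the 25% limit. These shares of 9.09% each lay near those of all loci (9.63% and 6.80%), and the median was 0.06. The higher one was *Pdk2*, a pyruvate dehydrogenase kinase (9.02 and 11.4 FPKM in control and *Yap* mutant lungs, 0.34). The lower one was *Pdp1*, a pyruvate dehydrogenase phosphatase (7.64 and 5.68 FPKM, -0.42). *Pdk3*, the most abundant such kinase, had 29.6 and 25.4 FPKM (-0.22).

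Among 9 loci for gluconeogenesis and glycogen, 3 were higher (33.3%, against 9.63% of all loci) and 0 lower, with a median of 0.08. They were *Pygm*, the muscle glycogen phosphorylase (2.20 and 7.06 FPKM, 1.64), *Pygl*, the liver form (11.0 and 14.9 FPKM, 0.43), and *Pck2*, mitochondrial phosphoenolpyruvate carboxykinase (25.2 and 31.6 FPKM, 0.32). Heart muscle markers summed to 122 and 888 FPKM and liver markers to 14.2 and 60.4 FPKM in the same groups. Of the liver markers, *Alb* had 1.28 and 1.14 FPKM. The part of heart and liver RNA in these values was not tested.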
